A study of Mus musculus with 4 samples.

Results

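The Elane-high cells were 307 of the 3567 cells kept from 4 single-cell libraries of sorted mouse cells, 245 in the sinusoidal library labelled knockout and 62 in the sinusoidal library labelled control. A cell was counted among them when Elane took at least 0.5% of its unique molecular identifiers (UMIs, one per captured transcript), Ngp and Camp together under 1% and Lyz2 under 2%, after barcodes with fewer than 200 genes or with 10% or more mitochondrial UMIs had been left out. The cells were thus chosen by measured values, and the levels of all genes in them against other cells are a description and carry no test. The labels give the sort as lineage-negative cells that carry CD31, VE-cadherin and endomucin, with the Sca-negative fraction called sinusoidal and the Sca-positive fraction called H vessel. The mice of the libraries labelled knockout were Cdh5-CreER with ID1-/- ID3-/-, and the control mice, WT in the titles, were Cdh5-CreER with ID1+/+ ID3+/-, so the controls carry 1 intact Id3 allele. All groups had tamoxifen by intraperitoneal injection on 5 days, which was meant to delete Id1 in the mice of the libraries labelled knockout. The sources used here do not give the strain, age, sex or number of mice behind each library. Each group was 1 library, so no difference between the labels has a replicate check and none has a p-value.

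Elane encodes neutrophil elastase, a serine protease that granulocyte precursors store with myeloperoxidase (Mpo), cathepsin G (Ctsg) and proteinase 3 (Prtn3) in the azurophil granules, the first granules made in neutrophil development. Promyelocytes make these proteins, and later stages switch to the specific granule proteins, among them Ngp, the cathelicidin Camp and lactoferrin (Ltf). The transcription factors PU.1, Myb and the C/EBP family are known to act on azurophil granule genes, Gfi1 and Cebpe favour the granulocyte fate, and Irf8 favours the monocyte and dendritic fates. Id proteins pair with E proteins, which then no longer bind DNA.

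The promoters of the 4 marker genes are shown because Elane chose the cells and the levels of Mpo, Ctsg and Prtn3 varied with it from cell to cell. Each runs over 300 bases around the RefSeq start, up to 50 bases after it, on GRCm38.p6, 5′ to 3′ on the gene's strand, with capitals on each match to GAGGAA, the purine-rich core that PU.1 binds. Elane lies at chr10:79886062-79886361 and Prtn3 at chr10:79879417-79879716, both on the plus strand, Mpo at chr11:87793534-87793833 on the plus strand and Ctsg at chr14:56102525-56102824 on the minus strand. The GENCODE M21 genes start upstream of the RefSeq starts for Elane (79886247), Prtn3 (79874476) and Mpo (87793581). The whole Prtn3 window and most of the Mpo window thus lie inside the GENCODE genes, and motif positions depend on the start used.
Elane: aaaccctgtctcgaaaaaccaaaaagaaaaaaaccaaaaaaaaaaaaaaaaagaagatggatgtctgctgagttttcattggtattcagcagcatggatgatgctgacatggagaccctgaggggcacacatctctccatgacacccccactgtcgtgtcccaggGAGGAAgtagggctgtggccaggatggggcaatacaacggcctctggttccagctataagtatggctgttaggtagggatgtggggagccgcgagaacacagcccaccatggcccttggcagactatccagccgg
Prtn3: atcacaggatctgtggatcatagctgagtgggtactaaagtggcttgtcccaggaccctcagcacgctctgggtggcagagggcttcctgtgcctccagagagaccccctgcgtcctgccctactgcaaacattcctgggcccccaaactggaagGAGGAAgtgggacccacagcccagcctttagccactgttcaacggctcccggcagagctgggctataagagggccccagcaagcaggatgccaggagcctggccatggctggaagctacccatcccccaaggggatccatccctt
Mpo: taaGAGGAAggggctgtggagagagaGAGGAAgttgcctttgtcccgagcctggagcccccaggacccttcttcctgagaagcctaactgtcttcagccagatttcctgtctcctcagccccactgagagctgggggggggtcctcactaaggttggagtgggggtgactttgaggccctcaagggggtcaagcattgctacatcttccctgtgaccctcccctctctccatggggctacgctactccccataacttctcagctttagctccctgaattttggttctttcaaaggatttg
Ctsg: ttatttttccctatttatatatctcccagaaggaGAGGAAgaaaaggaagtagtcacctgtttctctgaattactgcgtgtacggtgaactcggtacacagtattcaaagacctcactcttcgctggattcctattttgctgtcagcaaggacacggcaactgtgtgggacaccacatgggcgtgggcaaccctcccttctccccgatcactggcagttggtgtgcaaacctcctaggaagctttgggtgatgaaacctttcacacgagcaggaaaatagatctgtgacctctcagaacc
GAGGAA was searched on both strands and was present once in the Elane, Prtn3 and Ctsg windows and at 2 places in the Mpo window, all on the strand of the gene. In Elane the match spanned positions -85 to -80 from the start, and in the neighbouring gene Prtn3 positions -95 to -90. Of the 32544 distinct promoter windows of the same length searched as a background, 28.12% held this motif. AACGG, a core bound by Myb, was found in the Elane window at -50 to -46 and in the Prtn3 window at -55 to -51 but not in the Mpo or Ctsg windows, against 17.37% of all windows. TTNNGNAA, a C/EBP pattern, was in none of the 4 windows, against 40.67% of all windows. The 3 motifs did not overlap each other in these windows, and a match is no evidence that a factor binds.

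The sinusoidal libraries held 8338220 UMIs in the library labelled knockout and 3234772 in the library labelled control, and the H vessel libraries 11065352 and 5703108. The design text gives 20000 sorted cells, against 3641 barcodes in the files. No barcode was shared between the 2 sinusoidal libraries. Elane-high cells were deep in both, with a median of 16751 UMIs and 3475 genes per cell in the labelled knockout and 17702.5 UMIs and 3630 genes in the labelled control, while the other cells had medians of 12985 and 5636 UMIs. Scrublet marked 4 Elane-high cells labelled knockout and 5 labelled control as doublets, and 8 and 4 held both Xist and Y-linked UMIs. The transcripts meant to be deleted did not follow the labels. Id3 was at 128 counts per 1000000 UMIs (CPM) in the other cells of the library labelled knockout and 78.8 CPM in those of the labelled control, and Id1 was 37.8 and 32.2 CPM. Neither transcript was lower in the library labelled knockout, so the libraries are named here only as labelled. The sources used here do not say which part of either gene is deleted, and a 3′ tag outside that part checks nothing. Deletion of Id1 also needs the CreER that Cdh5 drives. The 8 endothelial markers, Cdh5 among them, summed to 26 UMIs over the other cells labelled knockout and 17 over those labelled control. Transcripts at capture do not show whether a cell or its precursor made the CreER when tamoxifen was given. That was not tested, so Id1 cannot settle the labels here.

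Elane-high cells made up 44.3% of the 553 sinusoidal cells labelled knockout (95% exact Clopper-Pearson interval 40.1% to 48.6%) and 17.7% of the 351 labelled control (13.8% to 22.1%). All intervals given here cover counting error only, which leaves out how much cells, mice or sorts vary. In the H vessel gate the same thresholds found 3 of 1857 cells labelled knockout and 0 of 806 labelled control (exact interval up to 0.457%). A share within a sorted gate also depends on how the gate was set in each sort, and the part of the gate in this difference was not tested. Elane took between 0.508% and 4.22% of UMIs in the labelled knockout cells, with a median of 1.90%, and between 0.511% and 3.35% in the control cells, with a median of 2.0%. The cells nearest to the Elane limit from below had 0.486% and 0.356%. Of 285 labelled knockout and 68 control cells over the Elane limit, 38 and 5 had too much Ngp and Camp and a further 2 and 1 too much Lyz2. The nearest of these on the Ngp and Camp side had 1.22% and 1.21%, against highest values inside of 0.988% and 0.905%. The plot of Elane against Ngp plus Camp shows that the cells run on without a gap into those with more Ngp and Camp, so the limit cuts a range.

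**Figure D1:**
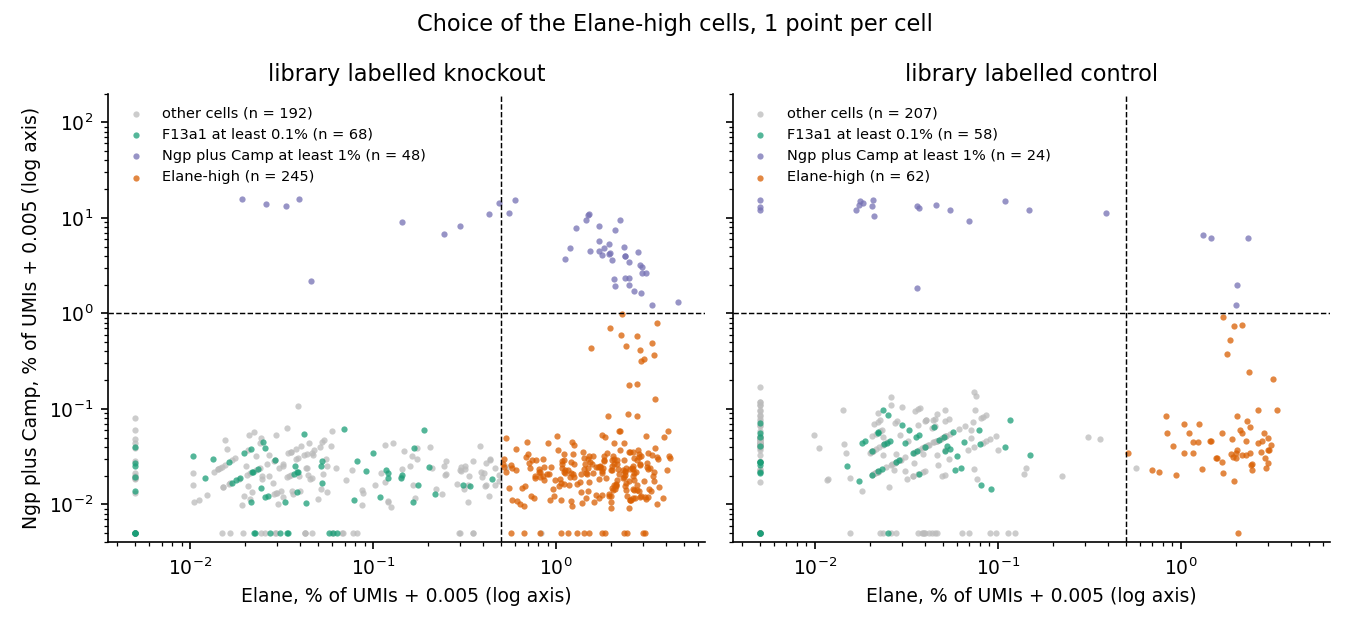
Share of UMIs from Elane (x axis) and from Ngp plus Camp (y axis), both in percent with 0.005 added and on log axes, for each cell of the library labelled knockout (left) and labelled control (right). Dashed lines mark the limits at 0.5% and 1%, and the 245 and 62 Elane-high cells fill the lower right of each panel.

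The label of early granulocyte precursors held in the marker genes, of which Elane is the rule's own. Mpo averaged 6716 CPM over Elane-high cells labelled knockout and 6861 CPM over those labelled control. Prtn3 was at 7408 and 8265 CPM, and Ctsg at 6193 and 6199 CPM. Each had UMIs in every Elane-high cell, against 63.6% to 72.7% of the 11 lymphoid cells labelled knockout and 34.4% to 46.9% of the 32 labelled control, with median depths of 17967 and 3990 UMIs. Cells called lymphoid are the other cells with at least 3 UMIs of T, NK or B cell markers. Their median was 0 and 1704 CPM of T and NK markers and 152 and 0 CPM of B and plasma markers. Those with Ngp plus Camp at 1% or more were not left out. The class can thus hold myeloid cells and is no clean gauge of free RNA. In lymphoid cells the sum of the 4 marker genes had a median of 3903 CPM in the labelled knockout and 696 CPM in the control. It was 1205 and 606 CPM in F13a1 cells (F13a1 at 0.1% of UMIs or more and Elane under 0.5%). Single lymphoid cells reached 37434 and 14496 CPM. The highest of these lies in the range of Elane-high cells, whose lowest sums were 11504 and 15961 CPM. Transcripts of the labelled cell type, sinusoidal endothelium, were at or near 0. The 8 endothelial markers summed to 3 UMIs over the 245 labelled knockout cells and 1 UMI over the 62 control cells, and Cdh5, which encodes VE-cadherin and drives the CreER, was at 0 in both, as were Kdr, Stab2 and Flt4. T and NK cell markers also gave 3 and 1 UMIs. The 10 monocyte markers summed to 598 and 383 CPM, against 2252 and 3331 CPM in the other cells, and the 8 stem and multipotent markers to 40.3 and 33.6 CPM. Erythroid markers summed to 213 and 6601 CPM, and 1 control cell with 21.8% haemoglobin UMIs held most of the control sum.

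Against the other cells of the same library, Elane-high cells had higher azurophil granule transcripts, more of the secretory and ribosome-building machinery and less of the late neutrophil, monocyte, interferon and immediate-early transcripts. The other cells are a mixture that differs between the libraries, so the size of each ratio is particular to its library. In the labelled knockout 8.63% of 8185 genes were at least 1.5-fold higher in Elane-high cells and 18.7% at least 1.5-fold lower, and in the control 24.2% and 25.6% of 5803 genes. Among 2775 genes with at least 50 UMIs in the Elane-high cells of each library, a filter that leaves out genes low in these cells, the 12 with the highest smaller ratio were Fkbp11, Mpo, Elane, Nkg7, Rgcc, Prss57, Ctsg, Alas1, B4galt6, Ms4a3, Gfi1 and Mt1. Fkbp11, a prolyl isomerase of the endoplasmic reticulum, led with 99.2 CPM in Elane-high cells against 19.3 CPM in other cells of the labelled knockout (5.15-fold, 4.04 to 6.65), and 103 against 11.4 CPM in the control (9.07-fold, 5.77 to 14.9). Prss57, a serine protease of the same granules, was at 442 against 109 CPM in the labelled knockout and 475 against 51.0 CPM in the control. Ms4a3, a membrane protein used to trace granulocyte and monocyte progenitors in mice, was at 2412 against 685 CPM and 2786 against 285 CPM in the same order. Nkg7, a granule membrane protein first known from cytotoxic lymphocytes, was 4.16-fold higher in the labelled knockout and 7.11-fold higher in the control. The metallothionein Mt1 was at 768 against 226 CPM and 979 against 106 CPM.

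**Figure D2:**
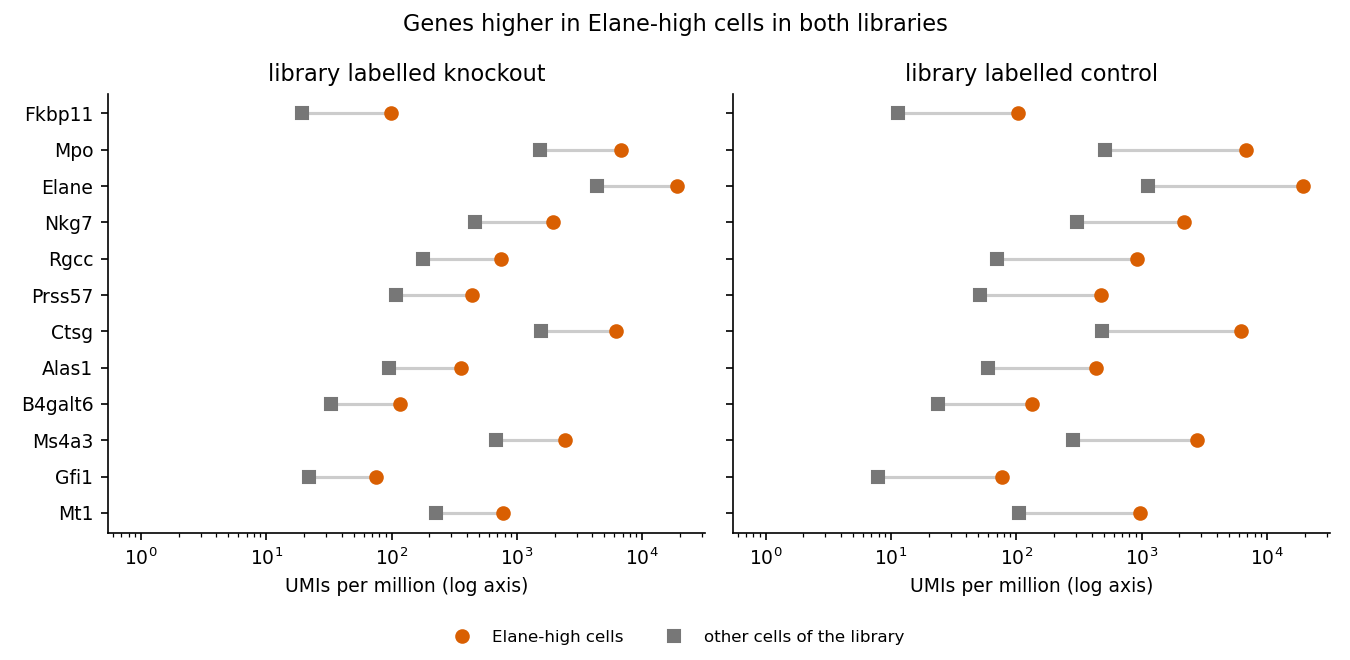
Levels of the 12 leading genes in CPM (log axis) in Elane-high cells (circles) and in the other cells of the same library (squares), in the library labelled knockout (left) and labelled control (right). All 12 circles lie to the right of their squares in both panels, and Fkbp11 shows 99.2 against 19.3 CPM in the labelled knockout.

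Granule proteases and the genes that handle them were higher in Elane-high cells for 9 of 12 measured members in the labelled knockout and 10 of 13 in the control, with 1 and 2 lower. Elane, which chose the cells, counts among the higher ones. The cystatin Cst7, which inhibits cathepsins, was at 437 against 135 CPM in the labelled knockout and 482 against 55.5 CPM in the control. Srgn encodes serglycin, the proteoglycan that packs granule proteases, and was at 2488 against 911 CPM and 2737 against 698 CPM. Ctsc, the dipeptidyl peptidase that activates elastase, went the other way, at 81.1 CPM in Elane-high cells and 225 CPM in other cells of the labelled knockout, and 49.1 and 367 CPM in the control. In haem synthesis 1 gene was higher and 1 lower in each library, of 8 genes measured in the labelled knockout and of 7 in the labelled control. Alas1, which makes the first product of haem synthesis and so serves the haem enzyme Mpo, was at 356 against 95.6 CPM and 434 against 59.9 CPM, and the lower gene was Uros in the labelled knockout and Fech in the control.

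Of the secretory pathway list, 11 of 22 genes were at least 1.5-fold higher in Elane-high cells of the labelled knockout and 20 of 22 in the control, and none was lower. The chaperone calreticulin (Calr) was at 1212 against 617 CPM in the labelled knockout and 1267 against 408 CPM in the control. Hspa5, the main chaperone of the endoplasmic reticulum, was at 522 against 320 CPM and 644 against 326 CPM. The unfolded protein response list had 3 of 11 genes higher and 1 lower in the labelled knockout and 4 of 10 higher and 1 lower in the control. Sdf2l1 and Manf, which assist folding in the endoplasmic reticulum, were higher in both, and the stress factor Ddit3 was the lower one in both. Ribosome biogenesis genes were higher for 7 of 17 in the labelled knockout and 13 of 16 in the control, with none lower, and Rrs1, needed for the large ribosomal subunit, was at 127 against 70.6 CPM and 127 against 39.1 CPM.

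Late neutrophil genes were lower for 16 of 18 measured genes in the labelled knockout and 16 of 19 in the control. The rule's limits on Ngp, Camp and Lyz2 bear on this list directly. Ltf was at 2.83 CPM in Elane-high cells and 171 CPM in other cells of the labelled knockout, and at 23.3 and 913 CPM in the control. Fcnb, a ficolin made between the early and late granule stages, was at 164 against 328 CPM in the labelled knockout and 313 against 143 CPM in the control, so it was lower in the labelled knockout and higher in the control. The NADPH oxidase, which neutrophils assemble late, had 3 of 6 genes lower in both, with Cybb at 50.9 against 239 CPM and 73.2 against 616 CPM.

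Granulocyte factors went both ways and monocyte and dendritic factors one way. Of 11 granulocyte factors, 3 were higher and 4 lower in the labelled knockout and 4 higher and 5 lower in the control. Gfi1 was at 75 against 22 CPM in the labelled knockout and 77.5 against 7.93 CPM in the control. Myb, a factor of dividing progenitors, was at 301 against 117 CPM and 255 against 61.9 CPM, and Myc was higher in both. Runx1, Lmo4, Cebpb and Cebpg were lower in both. All 6 measured monocyte and dendritic factors were lower in both libraries. Irf8 was at 194 CPM in Elane-high cells and 457 CPM in other cells of the labelled knockout, and at 88.7 and 349 CPM in the control. Klf4, a monocyte factor, was at 20.7 against 117 CPM and 12.1 against 145 CPM. Among surface receptors 3 of 20 were higher and 12 lower in the labelled knockout and 2 and 12 of 20 in the control, and Clec12a was the only one higher in both. The monocyte growth factor receptor Csf1r was at 15.3 against 55.8 CPM and 10.3 against 146 CPM, while the granulocyte receptor Csf3r was within 1.5-fold.

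The Elane-high cells held cell cycle transcripts in most cells. With each cell thinned to 2000 UMIs, 73.5% of Elane-high cells labelled knockout and 77.4% of those labelled control held at least 3 UMIs of the 20 S phase genes (67.5% to 78.9% and 65.0% to 87.1%), against 45.8% and 16.6% of other cells. Without thinning the 4 shares were 99.6% and 100%, against 76.0% and 33.9%. For the 22 G2/M genes the thinned shares were 53.9% and 58.1%, against 58.4% and 18.7% of other cells. Those other cells with Ngp plus Camp at 1% or more had thinned S phase shares of 79.2% (48 labelled knockout) and 33.3% (24 labelled control). Their intervals were 65.0% to 89.5% and 15.6% to 55.3%, and their G2/M shares were 60.4% and 37.5%. Under the knockout label, shares this high were thus not particular to Elane-high cells. By level, 4 of 20 S phase genes were higher in the labelled knockout and 15 of 20 in the control, with none lower. The G2/M genes were lower for 20 of 22 in the labelled knockout, and 2 were higher and 1 lower of 21 in the control. Mki67, a proliferation marker, was at 48.6 against 138 CPM in the labelled knockout and 49.96 against 58.0 CPM in the control, so its level in Elane-high cells was alike in both and that of the other cells was not. All 8 measured cell cycle inhibitors were lower in both, among them Cdkn1a, which encodes p21, at 7.54 against 35.3 CPM and 3.45 against 72.8 CPM.

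Immediate-early genes, which stress and cell handling induce, were lower in Elane-high cells for 13 of 15 genes in the labelled knockout and 13 of 14 in the control. Fos was at 123 against 460 CPM and 79.2 against 1027 CPM. Interferon response genes were lower for 8 of 11 and 16 of 17, and MHC class II genes for 5 of 6 and 6 of 6. Anti-apoptotic genes were lower for 5 of 7 and 6 of 8, and the pro-apoptotic list had 2 of 10 lower in the labelled knockout and 2 of 9 higher and 2 lower in the control. The stem and progenitor list had 2 of 13 genes higher and 8 lower in the labelled knockout and 2 of 10 higher and 4 lower in the control. Of its members, the stem cell factor receptor Kit was at 37.2 against 21.0 CPM and 25.8 against 19.8 CPM. Id1, Id2, Id3 and the E protein gene Tcf4 were lower in Elane-high cells of both libraries. The E protein gene Tcf3 was at 51.2 against 57.8 CPM and 38.8 against 50.5 CPM, and Tcf12 was likewise within 1.5-fold.

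Elane-high cells were also set against cells with Ngp plus Camp at 1% or more, 48 labelled knockout and 24 labelled control, and against those with F13a1 at 0.1% or more and Elane under 0.5%, 68 and 58. F13a1 encodes a coagulation factor chain that monocytes carry. Of the Ngp and Camp cells, 38 and 5 also passed the Elane limit, so that Elane itself was at 18795 CPM in Elane-high cells and 18636 CPM in Ngp and Camp cells of the labelled knockout, and at 19284 and 5655 CPM in the control. Of the genes measured, 34.4% were at least 1.5-fold higher in Elane-high cells than in Ngp and Camp cells of the labelled knockout and 57.4% in the control, with 9.08% and 8.85% lower. Ctsg was 2.88-fold higher (2.74 to 3.03) in the labelled knockout and 10.5-fold (8.91 to 12.4) in the control, and Npm1, a nucleolar protein of ribosome assembly, 3.49-fold and 6.79-fold. Cd34, a progenitor surface protein, was at 72.4 against 1.39 CPM and 41.3 against 4.02 CPM. Cebpe, the factor of the specific granule stage, was at 241 against 812 CPM and 326 against 841 CPM, and Serpinb1a, which inhibits elastase, at 631 against 1610 CPM and 827 against 1235 CPM. Id2 was also lower in Elane-high cells, at 22.2 against 209 CPM and 56.0 against 201 CPM.

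Against the F13a1 cells, 19.9% of genes were higher in Elane-high cells of the labelled knockout and 30.7% in the control, and 23.2% and 24.1% were lower. Cd63, a membrane protein of azurophil granules, was at 811 against 16.2 CPM in the labelled knockout and 1022 against 19.9 CPM in the control. Cebpe was at 241 against 11.2 CPM and 326 against 14.9 CPM. Gfi1 had 318 UMIs in Elane-high cells and 3 in F13a1 cells of the labelled knockout, a 20.1-fold ratio with an interval of 6.81 to 98.0, and 90 and 0 UMIs in the control. The factor Cebpa, which granulocyte and monocyte progenitors share, differed less, at 79.7 against 87.1 CPM and 63.7 against 122 CPM. Lyz2, on which the rule sets a limit, was at 1005 against 20902 CPM and 1385 against 42508 CPM.

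The Elane-high cells were not uniform. They were split by Elane share into 0.5% to 1% (46 labelled knockout and 7 control cells), 1% to 2% (85 and 25) and over 2% (114 and 30), and median depth in these ranges was 17457, 17341 and 16048 UMIs in the labelled knockout and 23689, 17915 and 15913 UMIs in the control. Since Elane share chose the ranges, the levels along it are described with no test, and the lowest range of the control rests on 7 cells. Ms4a3 was at 918, 2108 and 3357 CPM from the lowest to the highest range in the labelled knockout and at 1282, 2657 and 3353 CPM in the control. Gfi1 was at 18.6, 60.9 and 113 CPM, and at 57.4, 62.4 and 97.4 CPM. Cebpe was at 103, 191 and 345 CPM, and at 31.9, 329 and 411 CPM. Fcnb was at 12.8, 68.8 and 312 CPM, and at 19.1, 296 and 416 CPM. These genes of granulocyte differentiation were thus higher in the ranges with more Elane in both libraries.

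Progenitor and monocyte genes ran the other way. Irf8 was at 569, 174 and 36.1 CPM from the lowest to the highest Elane range of the labelled knockout, and at 293, 45.8 and 66.8 CPM in the control. Cd34 was at 133, 98.9 and 22.1 CPM, and at 140, 45.8 and 7.64 CPM. Sox4, a factor of immature progenitors, was at 74.3, 49.8 and 13.5 CPM, and at 57.4, 25 and 1.91 CPM. F13a1 was at 572, 201 and 98.7 CPM, and at 211, 110 and 101 CPM. The range with the least Elane therefore had the highest levels of Irf8, Cd34, Sox4 and F13a1 in both libraries, from 7 cells in the control. For F13a1 the upper control ranges, at 110 and 101 CPM, were alike. F13a1 reached 0.1% of UMIs in 12 of the 245 Elane-high cells labelled knockout (4.90%, 2.56% to 8.40%) and in 0 of the 62 labelled control (up to 5.78%). Calr differed little between ranges, at 1189, 1332 and 1125 CPM and at 1544, 1213 and 1234 CPM. Top2a, a topoisomerase of dividing cells, was at 196, 135 and 106 CPM, and at 249, 70.8 and 89.8 CPM.

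**Figure D3:**
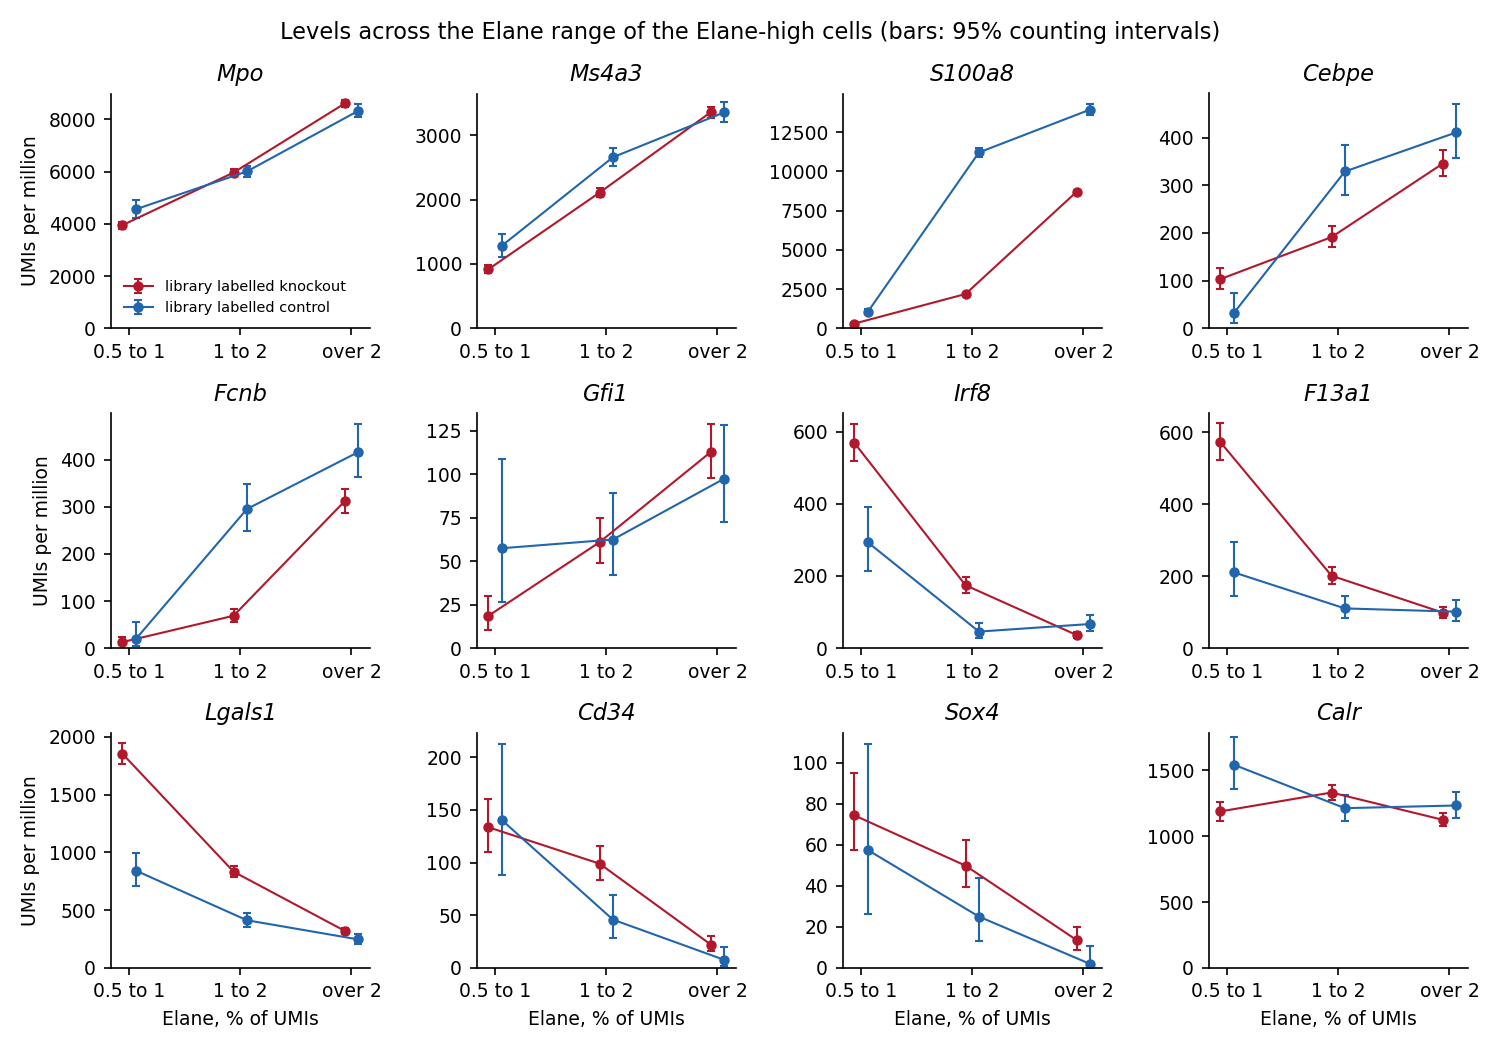
Levels of 12 genes in CPM over Elane-high cells with Elane at 0.5% to 1%, 1% to 2% and over 2% of UMIs, in the library labelled knockout (red) and labelled control (blue), with 95% Poisson counting intervals. Ms4a3 runs upwards to 3357 and 3353 CPM, while Irf8 is highest in the lowest range, at 569 and 293 CPM.

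Cell by cell, Spearman's rho with the Elane share was 0.74 for Prtn3 over the 245 labelled knockout cells and 0.61 over the 62 control cells, 0.78 and 0.60 for Nkg7, 0.69 and 0.62 for Ctsg and 0.62 and 0.46 for Mpo. It was -0.64 and -0.31 for Irf8, -0.49 and -0.37 for Cd34 and -0.40 and -0.44 for Sox4. For F13a1 it was -0.43 in the labelled knockout but -0.073 in the control, where F13a1 showed little trend from cell to cell. The cells of a library share its preparation and each cell's genes share 1 UMI total, so these are descriptions. Levels varied widely between cells: Mpo ran from 426 to 15759 CPM with a median of 5846 CPM in the labelled knockout, and from 1566 to 17551 CPM with a median of 5707 CPM in the control. The median cell held no Irf8 UMI in either library, and single cells reached 2153 and 600 CPM.

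Azurophil granule genes lay close together under both labels. Of 12 measured genes of granule proteases and their handling, Ctsc alone passed 1.5-fold, at 81.1 CPM in the library labelled knockout and 49.1 CPM in the labelled control. Over Elane-high cells, the ratio of the library labelled knockout to the labelled control was 0.979 for Mpo (0.955 to 1.0), 0.999 for Ctsg (0.973 to 1.03), 0.896 for Prtn3 (0.876 to 0.917) and 0.967 for Gfi1 (0.763 to 1.24). No gene of the secretory, S phase, haem synthesis, NADPH oxidase, unfolded protein response or granulocyte factor lists passed 1.5-fold. Of the 6745 genes with at least 50 UMIs over both sums, 467 (6.92%) were at least 1.5-fold higher in the library labelled knockout and 395 (5.86%) at least 1.5-fold lower, and the median log2 ratio of all was 0.01. A 1.5-fold ratio between 1 library and 1 other has no replicate check. The 95% interval lay wholly past 1.5-fold for 20 genes higher and 98 lower.

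Those named as higher, by the bound of the interval nearest to 1, were 3830403N18Rik, S100a10, Tpm4, Prdx4, Ncmap, Id3, Pkib, Lgals1, Irf8, Vim and Tmem109. The X-linked gene 3830403N18Rik, at chrX:56136572-56153498 on the plus strand of GRCm38, had 68 UMIs, in 19 of 245 cells, in the labelled knockout and 0 UMIs in 62 control cells. The exact 95% interval of the ratio starts at 4.91, and the other cells had 27 and 2 UMIs. S100a10, the light chain partner of annexin A2, was at 166 CPM in the library labelled knockout and 55.1 CPM in the labelled control (3.01-fold, 2.33 to 3.96). The galectin Lgals1 was at 816 and 395 CPM (2.06-fold, 1.87 to 2.28), and vimentin (Vim) at 233 and 109 CPM (2.13-fold, 1.77 to 2.58). Irf8 was at 194 and 88.7 CPM (2.19-fold, 1.78 to 2.71). Ncmap, named for a myelin-associated protein, was at 56.3 and 17.2 CPM (3.27-fold, 2.07 to 5.45).

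The ratios of S100a10, Tpm4, Prdx4, Pkib, Lgals1, Irf8 and Vim were smaller in cells over 2% Elane than in either lower range. In the range over 2% Elane, S100a10 was at 28.6 CPM in the labelled knockout and 19.1 CPM in the control, with an interval of the ratio from 0.754 to 3.30. Vim was there at 116 and 107 CPM (1.08-fold, 0.805 to 1.48), and Lgals1 at 320 and 246 CPM (1.30-fold, 1.07 to 1.58). Irf8 was lower there in the labelled knockout, at 36.1 and 66.8 CPM (0.541-fold, 0.354 to 0.839), against 174 and 45.8 CPM (3.81-fold, 2.46 to 6.18) in the range of 1% to 2%. Ncmap and Id3 kept their direction in cells over 2% Elane, with Ncmap at 68.0 and 17.2 CPM (3.95-fold, 2.02 to 8.85). Cells under 1% Elane were 18.8% of the Elane-high cells labelled knockout and 11.3% of those labelled control, with intervals of 14.1% to 24.2% and 4.66% to 21.9%.

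The Id genes differed in direction from one another. Id3, at chr4:136143497-136145755 on the plus strand, was at 43.4 CPM over Elane-high cells labelled knockout and 12.9 CPM over those labelled control (3.36-fold, 1.98 to 6.12), from 184 and 15 UMIs in 109 of 245 and 11 of 62 cells. After thinning, 9.80% and 1.61% of Elane-high cells had an Id3 UMI, against 9.09% of 11 and 6.25% of 32 lymphoid cells of the same libraries. The level in Elane-high cells did not exceed that in lymphoid cells, at 58.6 and 31.8 CPM. Lymphoid cells are known to express Id3 themselves, so this comparison cannot tell free Id3 RNA from Id3 that Elane-high cells made. Id1 was at 15.3 and 15.5 CPM (0.988-fold, 0.579 to 1.77). Id2 was at 22.2 and 56.0 CPM (0.396-fold, 0.285 to 0.552), with the lower level in the labelled knockout. In the F13a1 cells Id3 was at 241 and 92.1 CPM, so its direction there was the same. Among Elane-high cells positive for Xist alone, Id3 was at 43.2 CPM in 34 cells labelled knockout and 3.39 CPM in 15 control cells, from 24 UMIs and 1 UMI (intervals 27.7 to 64.3 and 0.0859 to 18.9 CPM), and among those positive for Y-linked genes alone at 42.3 CPM in 159 and 16.9 CPM in 37.

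**Figure D4:**
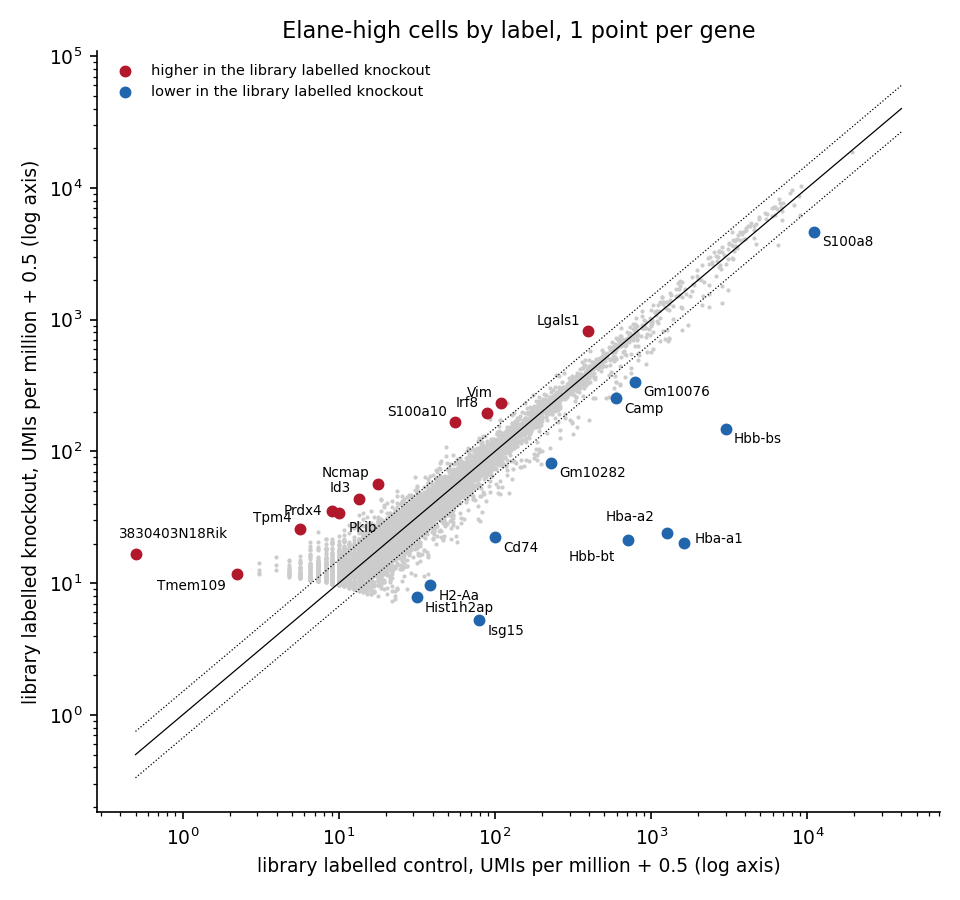
Level of each of 6745 genes in Elane-high cells, in CPM with 0.5 added on log axes, in the library labelled knockout (y axis) and labelled control (x axis), with equality (solid) and 1.5-fold (dotted) lines. Red and blue points are the genes named in each direction, and S100a8 stands apart at the high end with 4654 and 11061 CPM.

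The 12 named as lower in the library labelled knockout were Hba-a1, Hba-a2, Hbb-bt, Hbb-bs, Isg15, Cd74, H2-Aa, Hist1h2ap, Gm10282, S100a8, Camp and Gm10076. Haemoglobin transcripts were led by 1 control cell, which held 93.8% of the Hba-a1 UMIs and 77.8% of the Hbb-bs UMIs. Hbb-bs was at 148 CPM in the labelled knockout and 2996 CPM in the control, or 684 CPM without that cell. The median cell's erythroid marker sum was 202 CPM in Elane-high cells labelled knockout and 981 CPM in those labelled control, and 207 and 1003 CPM in F13a1 cells, so a similar difference ran through both kinds of cell. Isg15, an interferon-induced ubiquitin-like protein, had 96.7% of its control UMIs in 1 cell, and was at 4.71 CPM in the labelled knockout and 78.4 CPM in the control, or 2.65 CPM without that cell. Cd74 and H2-Aa, of antigen presentation, were likewise led by 1 cell of each library, which held 77.4% and 79.3% of the Cd74 UMIs and 84.6% and 81.8% of the H2-Aa UMIs. Without these cells Cd74 was at 4.98 CPM in the labelled knockout and 21.0 CPM in the control.

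S100a8, a calcium-binding protein that neutrophils make in bulk, was at 4654 CPM in Elane-high cells labelled knockout and 11061 CPM in those labelled control (0.421-fold, 0.412 to 0.430). Single cells ran from 0 to 56048 CPM with a median of 960 CPM in the labelled knockout and from 535 to 108420 CPM with a median of 5310 CPM in the control, so the ranges overlapped. The difference held within each Elane range, at 305 and 1046 CPM, 2190 and 11200 CPM, and 8706 and 13931 CPM from low to high. Its partner S100a9 was at 1344 and 2837 CPM, Fcnb at 164 and 313 CPM, Camp at 254 and 597 CPM and Ngp at 173 and 301 CPM. Cells with Ngp plus Camp at 0.1% to 1%, 15 of 245 labelled knockout (6.12%) and 7 of 62 labelled control (11.3%), held 680 of 1076 and 500 of 693 Camp UMIs and 406 of 733 and 155 of 349 Ngp UMIs. In the cells under 0.1% Camp was at 98.9 and 185 CPM and Ngp at 81.6 and 186 CPM, while in those from 0.1% to 1% Ngp was higher in the labelled knockout, at 1718 and 1319 CPM. Of the 13 measured late neutrophil genes, 7 were lower and 1, Padi4, was higher, with a median log2 ratio of -0.61. Camp and Ngp are among the 7 and are limited by the rule, so the count is not independent of it. In F13a1 cells S100a8 was at 297 and 769 CPM, and the median lymphoid cell held 253 and 492 CPM of the 8 later neutrophil markers, against 314 and 897 CPM in the median F13a1 cell and 217 and 472 CPM in the median Elane-high cell. Single lymphoid cells reached 23232 and 168394 CPM of these markers, so only their median is used. The part of free RNA in the difference was not tested.

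The counts past 1.5-fold in the other lists stand beside 6.92% higher and 5.86% lower of all 6745 genes measured. Several of these short lists lay above those shares in 1 direction or both. Of 9 measured stem and progenitor genes, Cd34, Sox4 and Adgrg1 were higher in the library labelled knockout and none was lower, with a median log2 ratio of 0.45. Cd34 was at 72.4 and 41.3 CPM (1.75-fold, 1.29 to 2.43), and Sox4 at 38.9 and 19.0 CPM. Immediate-early genes had 4 of 12 higher (Fos, Fosb, Jun and Klf6), with Jun at 172 and 108 CPM (1.60-fold, 1.32 to 1.95). Fos was higher in its sum, at 123 and 79.2 CPM, but not in the median cell, at 47.7 and 56.0 CPM. Of the 4 monocyte and dendritic factors measured, Irf8 and Klf4 were higher, and the median log2 ratio of 0.65 was -0.48 in cells over 2% Elane. Klf4 was higher in its sum, from 88 and 14 UMIs, but was found in 15.9% of Elane-high cells labelled knockout and 16.1% of those labelled control. In the MHC class II list H2-DMa was higher, at 108 and 48.2 CPM (2.24-fold, 1.69 to 3.01), and 3 of 5 genes were lower, but the median log2 ratio of -0.80 was 0.46 without doublet calls and 1.02 in cells over 2% Elane. Plk1 was the only G2/M gene past 1.5-fold and was lower. Among receptors Cd34 and Cd93 were higher and Itgam and Csf2ra lower of 18, with Itgam uncertain because its symbol stands for more than 1 gene ID. Bcl2, which opposes apoptosis, was at 26.6 and 13.8 CPM (1.93-fold, 1.14 to 3.50), and Casp6, Polr1b, Isg15, Id3 and Id2 passed 1.5-fold in the remaining lists.

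**Figure D5:**
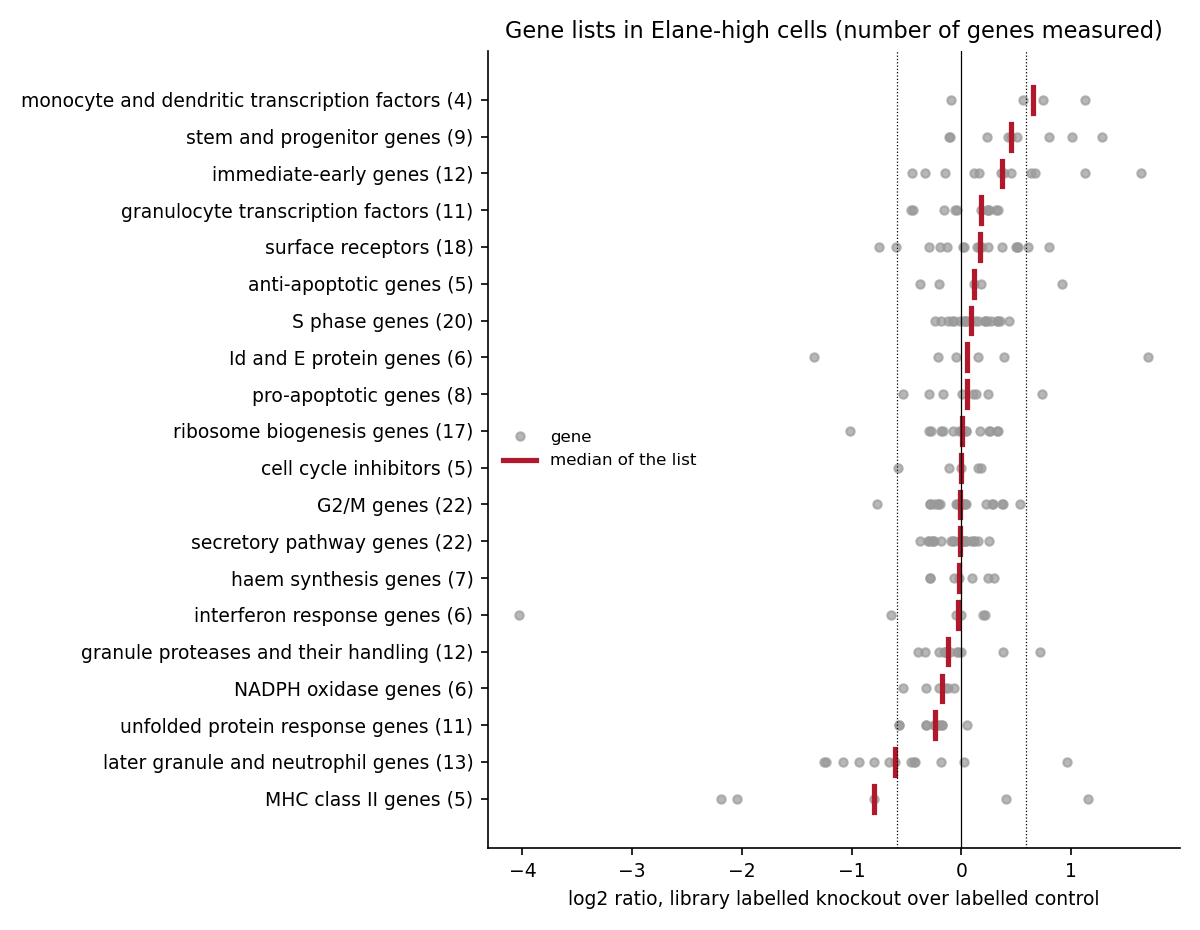
Log2 ratio of the library labelled knockout over the labelled control in Elane-high cells for each measured gene (grey points) and its list's median (red bars), for 20 gene lists with the number of genes measured. Dotted lines mark 1.5-fold, and the medians lie between -0.80 for MHC class II genes and 0.65 for monocyte and dendritic transcription factors.

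Of the 98 genes whose interval lay wholly past 1.5-fold lower, 36 had names starting with Gm and 12 names containing -ps, which mark predicted genes and pseudogenes. All 15 measured ribosomal pseudogenes were lower, summing to 5747 CPM in the labelled knockout and 10147 CPM in the control (0.566-fold, 0.554 to 0.579), while of the 84 ribosomal protein genes 13 were lower and 0 higher past 1.5-fold, with a median log2 ratio of 0.16. The same sum was 5000 and 7548 CPM in the other cells (0.662-fold) and 6555 and 9844 CPM in lymphoid cells (0.666-fold), and 3700 and 3942 CPM in Ngp and Camp cells (0.939-fold). These sequences nearly match their parent genes, so that reads can be split between copies, and Gm10282 and Gm10076 are uncertain for that reason.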

How the data were processed

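Per the labels' protocols, cells of 4 sorted libraries were captured on a 10x Chromium and read on an Illumina NextSeq. The authors deposited raw UMI counts per gene and barcode for 27998 genes, per the file headers and the whole-number values. Cell Ranger, Seurat and the mm10 build appear in the submitters' processing notes, and the sources used here do not say whether Seurat changed the matrices. A 3′ assay counts transcript ends, so no length correction was made.

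Of 3641 barcodes, 3567 cells had at least 200 genes and under 10% mitochondrial UMIs. Doublets were marked with Scrublet (scanpy 1.11.5) and stayed in. UMIs were summed per library over Elane-high cells, and ratios of CPM have exact 95% intervals conditional on the total, which cover counting error only. A log2 ratio has 0.5 UMIs added. Genes with at least 50 UMIs over both sums were compared and called at 1.5-fold. The text names up to 12 genes per direction whose interval lies wholly past 1.5-fold, ranked by the bound nearest to 1, and up to 12 genes higher than in other cells of both libraries, ranked by the smaller ratio. Some genes that meet these rules are not reported here. Cells were thinned to 2000 UMIs before shares were compared. Lymphoid cells hold at least 3 UMIs of T, NK or B cell markers. The interval method was tested on simulated counts. Members and gene lists were chosen with earlier results of these data known. Gene coordinates are from GENCODE M21, promoters from the RefSeq tables of GRCm38.p6. Python 3.11.15 and, for one scaling alternative, edgeR 4.0.16 in R 4.3.3 were used. The other alternatives changed the Elane, Ngp, Camp and Lyz2 limits, the cell and gene filters, the doublets, the sex-linked subset and the depth.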

Additional observations from a re-analysis of the deposited data

Results flagged for a closer look

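2 genes went opposite ways by label in Elane-high cells and in F13a1 cells. Tmem109, a membrane protein gene, was at 11.3 CPM in Elane-high cells labelled knockout and 1.72 CPM in those labelled control, a ratio of 6.57 (1.72 to 55.8) that rests on 48 and 2 UMIs. In F13a1 cells it was at 94.5 and 149 CPM, a ratio of 0.633 (0.445 to 0.903). Cd74 was at 21.9 and 99.9 CPM in Elane-high cells, a ratio of 0.219 (0.165 to 0.291), with 77.4% and 79.3% of its UMIs in 1 cell of each library, and at 126 and 64.7 CPM in F13a1 cells, a ratio of 1.94 (1.25 to 3.11). Each difference between the kinds of cell was not tested.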

How the results depend on the processing

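Of 700 values of single genes and list medians under the alternatives, 535 stayed within the counting interval (single genes) or within 0.2 on the log2 scale (list medians), 151 moved further and 14 past 1.5-fold changed sign. In cells with Elane over 2% of UMIs, an alternative chosen after seeing the data, the log2 ratio of labelled knockout over control was -0.90 for Irf8, -0.074 for Pkib, -0.046 for F13a1, -0.058 for Ctsc, 1.20 for Cd74, 0.87 for H2-Aa and 1.11 for Isg15, and list medians were -0.48 for monocyte and dendritic factors and 1.02 for MHC class II. Isg15 was also at 0.65 with Elane at 1% or more, 0.95 without doublet calls, 0.54 in cells with Y-linked UMIs alone and 0.64 without the haemoglobin-rich cell, and the MHC class II median at 0.46 without doublet calls. The share of Elane-high cells in the labelled knockout was 36.0% with Elane at 1% or more. Genes at least 1.5-fold higher and lower numbered 467 and 395, against 144 and 173 in Xist-positive cells, 266 and 252 over 2% Elane, 286 and 254 at 5000 UMIs per cell, 990 and 767 with 20 or more UMIs per gene and 63 and 121 with 200 or more. Higher genes were 54.2% of the calls, against 34.2% with 200 or more UMIs per gene and 45.4% in Xist-positive cells. List genes past 1.5-fold numbered 18 over 2% Elane, against 33. The Id3 ratio was 12.7 in Xist-positive cells, from 24 UMIs and 1 UMI. The smaller UMI sums and other gene minimum are part of how these settings are built, and other causes were not tested. No paired analysis was possible because each group is 1 library.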
